A study of Mus musculus with 10 samples.

Results

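The clustered protocadherins are the cell-surface proteins encoded by the Pcdha (alpha), Pcdhb (beta) and Pcdhg (gamma) gene clusters. Here they are described in the cerebral cortex of mice with a conditional knockout of Brap and of their controls. Members were all rows of the deposited count table whose Ensembl identifier carries a symbol of these clusters in the GENCODE M21 annotation of GRCm38. This gave 54 of the 14276 genes in the table, with 13 alpha, 21 beta and 20 gamma genes. The 54 genes lie side by side on the plus strand of chromosome 18, between positions 36930184 and 37841873. CPM below stands for counts scaled to a common library total. In all the members took 12859 to 22589 counts per library, which was 0.0631% to 0.0783% of the counts.

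Each neuron is known to switch on a small subset of these genes from alternative promoters, each with its own first exon. In the alpha and gamma clusters that variable exon, which encodes the cadherin repeats outside the cell and the membrane span, is spliced to constant exons that encode a shared tail inside the cell. Beta genes consist of one coding exon and have no constant tail. The proteins bind the same isoforms on other membranes, which lets a neuron tell its own branches from those of other cells, and they act in dendrite self-avoidance, axon tiling and neuron survival. The last genes of the alpha and gamma clusters, the C-type isoforms Pcdhac1, Pcdhac2, Pcdhgc3, Pcdhgc4 and Pcdhgc5, are known to be chosen by other rules than the rest. CTCF and cohesin, which fold the cluster so that a distant enhancer meets a promoter, and DNA methylation govern promoter choice.

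Total RNA of cortex was sequenced after depletion of ribosomal RNA in 5 control and 5 BrapcKO libraries of C57BL/6 mice aged 3 months. The controls were Cre- animals, 3 of genotype flox/wt (libraries 08, 22 and 23) and 2 of genotype flox/flox (09 and 24). The BrapcKO animals were Cre+, 3 of genotype flox/ko (04, 07 and 21) and 2 of genotype flox/flox (05 and 06). An allele named flox can be deleted by Cre recombinase, ko is already deleted and wt is intact. The labels do not name the driver of Cre or the exons removed, and since every BrapcKO animal carried Cre, Cre and the knockout cannot be told apart.

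Library totals ran from 17188901 to 28991874 counts. The titles carry a code of unstated meaning, B1 in 2 control and 4 BrapcKO libraries and B2 in 3 control and 1 BrapcKO library, and the B2 libraries were the deeper ones. Reads of the Y-linked gene Ddx3y marked 1 control (23) and 4 BrapcKO libraries (05, 06, 07 and 21) as male, so sex was also uneven. Brap itself, the targeted gene, stood at 88.4 ± 8.58 CPM (TMM-scaled CPM, SD, n = 5) in controls and 104 ± 9.15 CPM in BrapcKO (n = 5). Its log2 difference was 0.23 (SE 0.10, adjusted p = 0.18 in edgeR's quasi-likelihood test), so Brap was not lower and the labels could not be checked by it. The labels do not state that each library is a separate animal, so p-values measure the spread between libraries, which may in part be technical. Replicates of 1 group differed by far more than counting noise, with a chi-square of 7.15 to 96.3 per degree of freedom. The highest values came from pairs of different codes, such as 96.3 for controls 08 and 24. Pairs of the same code ran from 7.15 to 24.4, apart from control 24. That library differed from the B2 controls 22 and 23 by 51.8 and 48.6.

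The annotation holds 58 clustered protocadherins, and 4 of them had no row in the table: Pcdha4, Pcdhb1, Pcdhga10 and Pcdhgb8. Of Pcdha4's 5768 exon bases 404 lie in no other gene, and all of Pcdhga10's exon bases are also covered by another gene. Pcdhb1 has 2588 bases of its own, and Pcdhgb8 is annotated as a polymorphic pseudogene. Symbol Pcdha11 is given to 2 rows. The row ENSMUSG00000007440 starts at 37005203 and the row ENSMUSG00000102206 at 37010712, and they are kept apart here by identifier. RefSeq places Pcdha10 where the former lies. Near-identical stretches between members can make reads ambiguous. Between 10.1% and 23.4% of the 50-base windows of the first exon of alpha genes other than the C-types also occurred in another member. The share was 1.5% to 12% in beta genes, up to 4.06% in the gamma A genes and 2.67% to 16.8% in the gamma B genes. No first-exon window of a C-type gene occurred in another member, though the constant exons are shared within the alpha and the gamma cluster. First-exon windows could also occur in genes outside the clusters, 27.7% of them in Pcdha6 and 15.2% in the C-type Pcdhgc5. Members with a high share of either kind are therefore less certain.

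Levels between genes were compared per kilobase of exon that belongs to no other gene, since Pcdha1 with 287 counts over 10 libraries beside 12484 for Pcdhac2 shows that reads of the constant exons were not added to each gene. The levels in this paragraph are means over 10 libraries, in CPM per kilobase. Pcdhgc5, which is known to interact with GABA-A receptors, had the highest level at 25.2. It was followed by Pcdhgc3, a promoter of dendrite branching, at 22.1 and by Pcdhac2, which is needed for serotonergic axons to tile, at 17.99. By group Pcdhgc5 stood at 25.7 ± 2.04 (SD, n = 5) in controls and 24.7 ± 1.33 (n = 5) in BrapcKO. Pcdhgc3 spread much more, at 24.5 ± 10.8 and 19.7 ± 7.27, so its order against Pcdhgc5 and Pcdhac2 lay within its own spread. The place of Pcdhgc3 also rested on the length used: with bases under opposite-strand exons counted into its length it stood at 11.9, below Pcdhac2. Likewise Pcdhga11 stood at 11.1 on its 1256 unshared bases and at 5.30 with those bases counted in, within the range of the other gamma A genes. Every other member stood at 5.78 or less. Pcdhgc4, which interneurons need to survive, and Pcdhac1 had no such high level, at 4.39 and 1.93.

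The lowest member in the alpha cluster was Pcdha1 at 0.512 CPM per kilobase, in the beta cluster Pcdhb2 at 1.80 and in the gamma cluster Pcdhgb5 at 2.05. Pcdhb12 gave the highest beta level, 5.78, but this rested on 1107 bases and came to 2.11 over its whole exon length. Of the alpha genes 11 of 13 had under 100 counts in some library, against 4 of 21 beta genes and 1 of 20 gamma genes, so single alpha genes were measured least precisely. A single gene took a large part of the counts of its cluster: Pcdhac2 held 51.3% of the alpha counts and Pcdhgc5 32.4% of the gamma counts. In the beta cluster no gene stood out that far, with Pcdhb19 first at 11.1%.

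**Figure D1:**
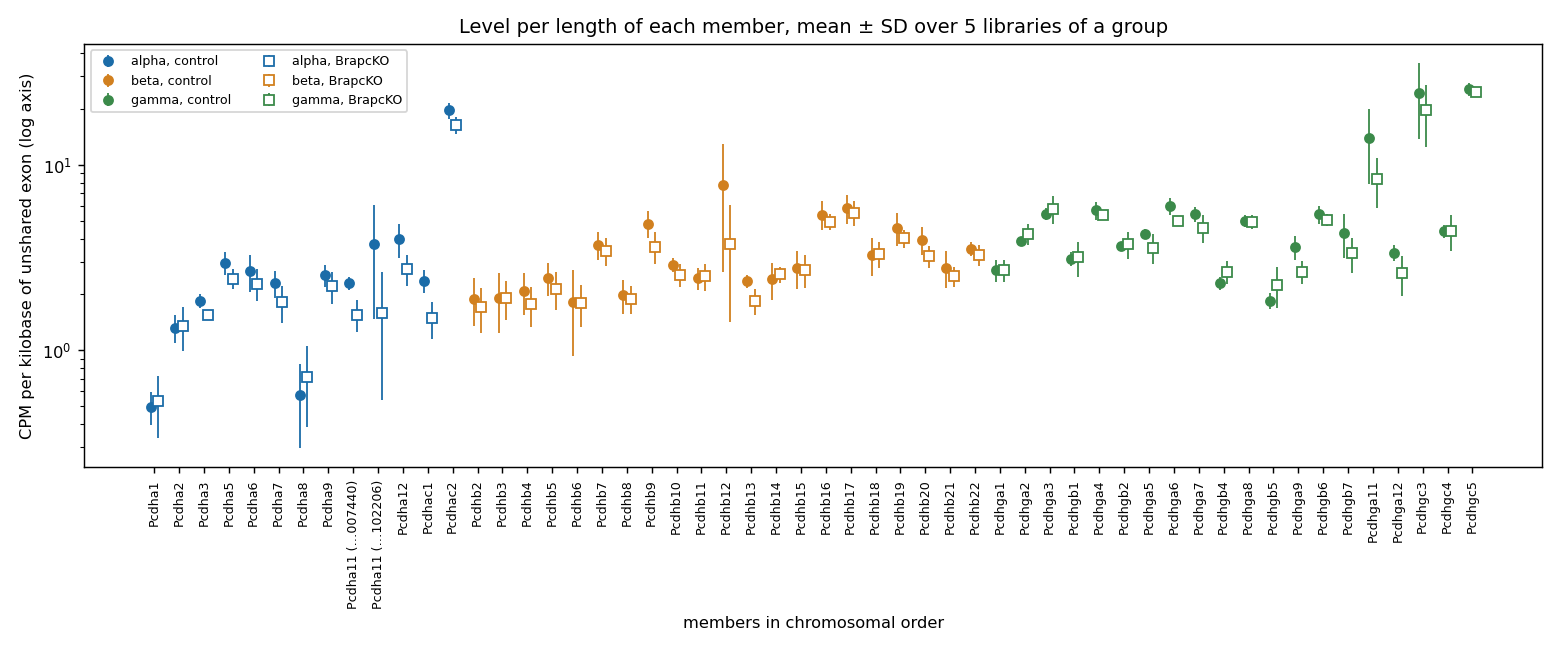
Level of each of the 54 members in chromosomal order, in CPM per kilobase of unshared exon on a log axis, as mean ± SD over the 5 control (filled) and 5 BrapcKO (open) libraries. Pcdhac2, Pcdhgc3 and Pcdhgc5 stand above the rest, and Pcdha1 and Pcdha8 are the lowest.

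The title code separated several members more than the group did, so it comes first. With group and code in one fit, 6 members were higher and 10 lower in B2 than in B1, 29.6% of the members beside 25.1% of all genes (13.4% higher and 11.8% lower). Pcdhb12 stood at 2.16 to 3.18 CPM in the 6 B1 libraries and at 8.78 to 14.5 in the 4 B2 libraries, a log2 difference of 1.96 (SE 0.19, adjusted p = 5.81e-06). Pcdhgc3 stood at 23.1 to 33.9 CPM in B1 and at 54.3 to 64.1 in B2, a log2 difference of 1.18 (SE 0.11, adjusted p = 3.32e-06). Neither gene's B1 and B2 libraries overlapped, and BrapcKO 21, the only BrapcKO library of B2, went with the B2 controls. The other 4 higher members were Pcdha11 (ENSMUSG00000102206), Pcdhga11, Pcdhgb7 and Pcdhb9. The lower ones were Pcdha8, Pcdhgc4 and 8 of the 21 beta genes, with Pcdhb18 falling by 0.55 (SE 0.11, adjusted p = 0.0021) from 16.3 to 21.8 CPM in B1 to 11.95 to 15.1 in B2, and Pcdhb19 falling by 0.43 (SE 0.09).

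Higher counts in B2 went with exons of other genes on the opposite strand. Pcdha11 (ENSMUSG00000102206) has 72.5% of its own exon bases under such exons, Pcdhb12 63.5%, Pcdhga11 52.4%, Pcdhgc3 46.1% and Pcdhgb7 29.7%, and these 5 members were all higher in B2. Among the 43 members with no such base 1 was higher, Pcdhb9, and 10 were lower. Over the whole table higher counts in B2 also went with overlap. Of 98 genes with more than 50% overlap 75.5% were higher in B2, with a median log2 difference of 1.30. For the 9914 genes with none the values were 10.6% and -0.036. Of those 9914 genes 11.9% were lower in B2, beside 23.3% of the 43 members. The sources used here do not say whether counting used strand, and its part in the difference was not tested. Since B2 holds 3 of 5 control libraries and 1 of 5 BrapcKO libraries, a comparison without the code moves such genes: the log2 difference between the groups of Pcdhb12 was -1.05 with the group as the only term and -0.11 with the code, and that of Pcdhgc3 was -0.31 and 0.23. All group values below are from the fit with the code, and sums are also given without these members.

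**Figure D2:**
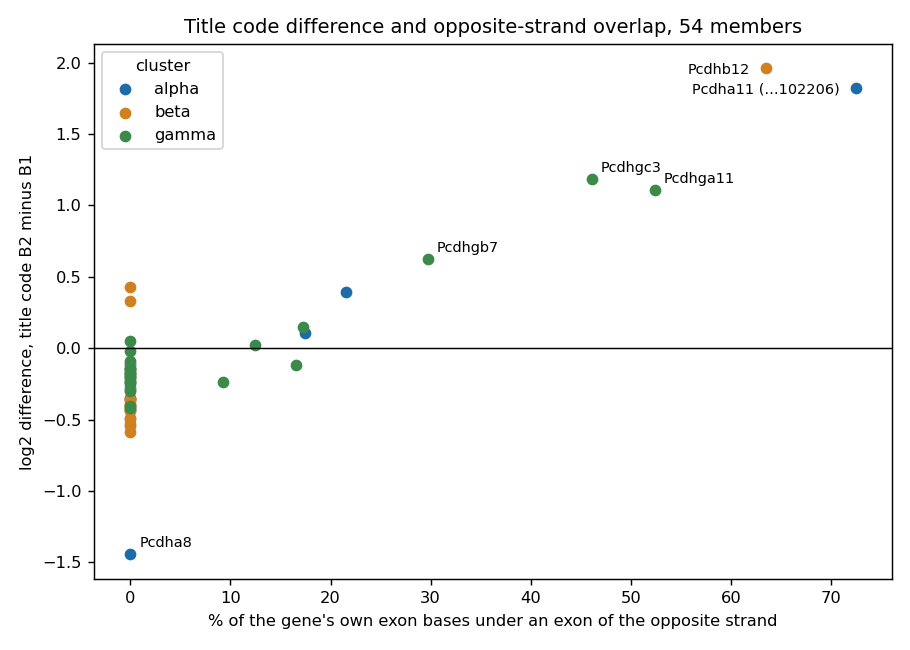
Each point is 1 of the 54 members, with the percentage of its own exon bases that lie under an exon of the opposite strand on the x axis and the log2 difference of B2 minus B1 libraries on the y axis. The 5 members with more than 25% overlap are all above 0, and the 43 members at 0% lie mostly below 0.

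The main comparison asked which clustered protocadherins differ between BrapcKO and control cortex. 5 of the 54 members were lower and none was higher at an adjusted p under 0.05 over all genes (edgeR's quasi-likelihood test, title code as a term). The lower ones were Pcdhac1 and Pcdha11 (ENSMUSG00000007440) of the alpha cluster, Pcdhb19 of the beta cluster, and Pcdhga6 and Pcdhga9 of the gamma cluster. These were 9.26% of the members, beside 8.07% of all genes called in either direction, 4.95% lower and 3.12% higher. The estimate was negative in 48 of 54 members (88.9%) and in 48.3% of all genes, and the median log2 difference was -0.21 in the members and 0.0083 in all genes. All members were counted in the same libraries, so their signs are not independent observations. This count of negative estimates rested in part on BrapcKO 21: it was 38 of 54 without that library, 37 in the B1 libraries alone and 42 with the group as the only term. At an unadjusted p under 0.05 there were 17 members (31.5%), beside 22.2% of all genes. Without BrapcKO 21 there were 8 such members (14.8%), beside 16.5% of all genes. In bulk tissue, fewer cells of a type and less RNA per cell cannot be told apart.

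**Figure D3:**
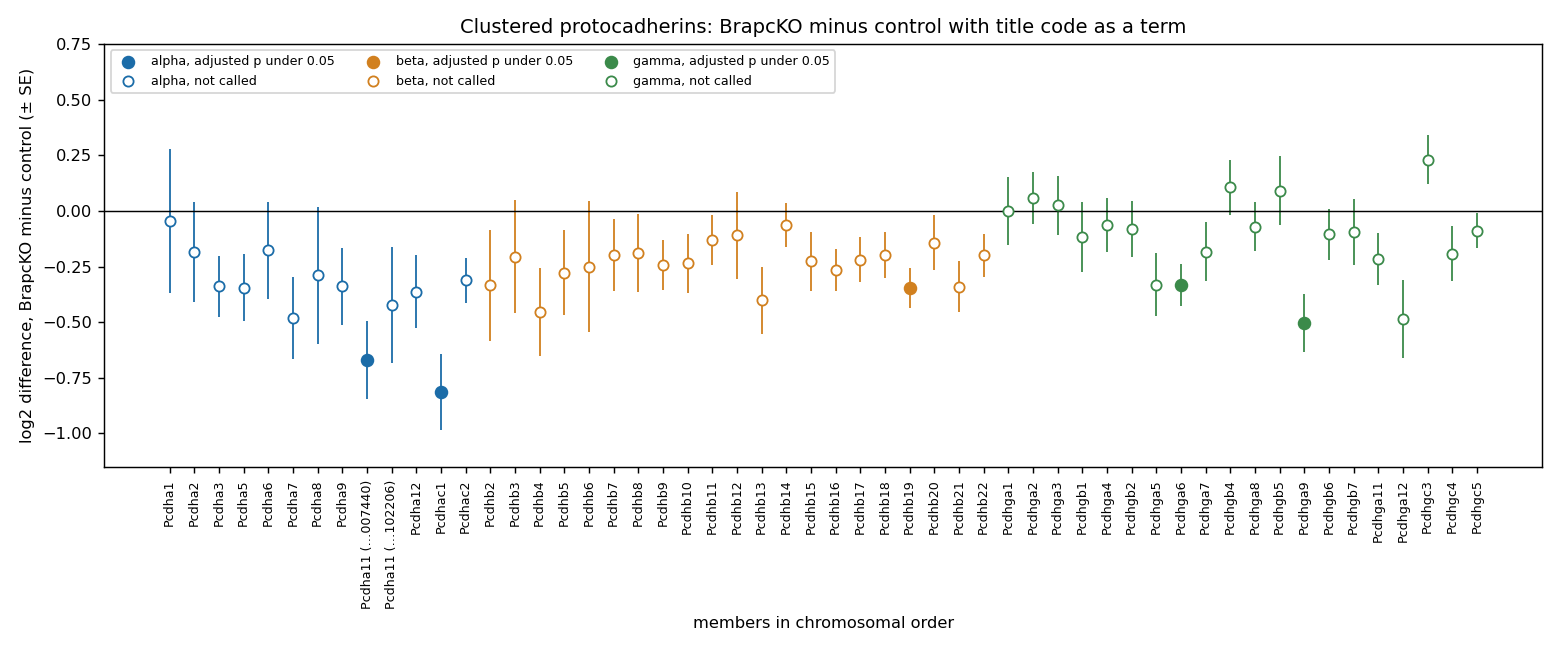
Log2 difference of BrapcKO minus control with its SE for each of the 54 members in chromosomal order, from the fit with the title code. Filled points passed an adjusted p of 0.05: all alpha and beta estimates are below 0, and 6 gamma estimates, Pcdhgc3 highest at 0.23, are above it.

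All 13 alpha genes had a negative estimate, with a median of -0.34, and 2 passed the test. Without BrapcKO 21 the negative estimates were 9 of 13, and with the group as the only term 10. Pcdhac1, 1 of the 2 alpha C-types, stood at 6.56, 7.15, 5.26, 5.20 and 6.09 CPM in controls 08, 09, 22, 23 and 24. In BrapcKO 04, 05, 06, 07 and 21 it stood at 4.10, 4.94, 4.16, 2.88 and 2.97 CPM. Every BrapcKO library was below every control, and the log2 difference was -0.81 (SE 0.17, adjusted p = 0.011). Pcdha11 (ENSMUSG00000007440) stood at 5.80, 5.51, 5.13, 5.93 and 6.32 CPM in the controls. In BrapcKO it stood at 4.15, 4.77, 3.73, 4.06 and 2.69 CPM, again with no overlap, and the log2 difference was -0.67 (SE 0.17, adjusted p = 0.034). Without BrapcKO 21, its lowest library, the log2 difference was -0.44 (adjusted p = 0.24). This gene shares 15.1% of its first-exon windows with other members and 10.2% with genes outside the clusters. Pcdhac1 shares none of its first-exon windows with either.

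Pcdhac2, by far the most abundant alpha gene, did not pass. Its level was 62.5, 58.6, 51.5, 57.1 and 67.3 CPM in the controls and 47.1, 54.6, 55.7, 46.7 and 43.6 CPM in BrapcKO. The groups overlapped, and the log2 difference was -0.31 (SE 0.10, adjusted p = 0.081). The remaining 10 alpha estimates ran from -0.48 in Pcdha7 to -0.04 in Pcdha1. Pcdha1 had 19 to 42 counts per library, and its SE of 0.32 exceeded its estimate. The C-types took 52.8% to 58.9% of the alpha counts in controls and 54.8% to 58.4% in BrapcKO, so their share overlapped between the groups.

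All 21 beta genes also had a negative estimate, from -0.45 in Pcdhb4 to -0.06 in Pcdhb14, with a median of -0.23. The negative estimates were 19 without BrapcKO 21 or without control 09, and 18 with the group as the only term. Only Pcdhb19 passed the test, 4.76% of the beta genes. It stood at 39.4, 38.5, 31.1, 29.95 and 24.0 CPM in the controls and at 30.1, 30.1, 29.2, 30.9 and 23.1 CPM in BrapcKO. The pooled groups overlapped. Within each code they did not: the 2 B1 controls were above the 4 B1 BrapcKO libraries, and the 3 B2 controls above BrapcKO 21. The log2 difference was -0.35 (SE 0.09, adjusted p = 0.034). Pcdhb21 came closest among the others, at -0.34 (SE 0.11, adjusted p = 0.090), and stood at 14.4, 14.6, 10.8, 11.3 and 8.25 CPM in the controls and 10.99, 11.5, 11.7, 10.8 and 8.25 CPM in BrapcKO.

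The gamma cluster was mixed, with 14 negative and 6 positive estimates and a median of -0.091. Without BrapcKO 21 the negative estimates were 10 of 20, and in the B1 libraries alone 9. The 2 called gamma genes belong to the A subfamily, whose median was -0.18, against -0.088 in the B subfamily. Pcdhga9 stood at 15.1, 13.8, 11.3, 11.1 and 11.1 CPM in the controls and at 9.65, 11.01, 8.07, 7.87 and 9.49 CPM in BrapcKO. All controls were above all BrapcKO libraries, though the B2 controls and BrapcKO 05 nearly met, and the log2 difference was -0.50 (SE 0.13, adjusted p = 0.033). Pcdhga6 stood at 15.9, 17.9, 16.2, 14.1 and 14.1 CPM in the controls and at 13.2, 13.6, 12.6, 13.7 and 12.04 CPM in BrapcKO. The groups did not overlap, and the log2 difference was -0.33 (SE 0.09, adjusted p = 0.049).

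No gamma C-type passed the test. Pcdhgc5, the most abundant member, stood at 119.8, 126.9, 104.6, 113.2 and 126.2 CPM in the controls and between 109 and 122.2 CPM in BrapcKO. The groups overlapped throughout, and the log2 difference was -0.09 (SE 0.08, adjusted p = 0.56). Pcdhgc4 stood at 14.2 to 17.1 CPM in the controls and at 9.70 to 17.6 CPM in BrapcKO, with a log2 difference of -0.19 (SE 0.12, adjusted p = 0.40), and its lowest library was BrapcKO 21. Pcdhgc3 had the highest estimate of all members, 0.23 (SE 0.11, adjusted p = 0.24), and its levels differed more between the codes than between the groups. In B1 its controls stood at 23.1 and 23.7 CPM, below the BrapcKO libraries at 25.5 to 33.9 CPM. In B2 BrapcKO 21, at 58.95 CPM, lay within the controls' range of 54.3 to 64.05 CPM. The other positive estimates, from 0.00 to 0.11, were those of Pcdhga1, Pcdhga2, Pcdhga3, Pcdhgb4 and Pcdhgb5.

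**Figure D4:**
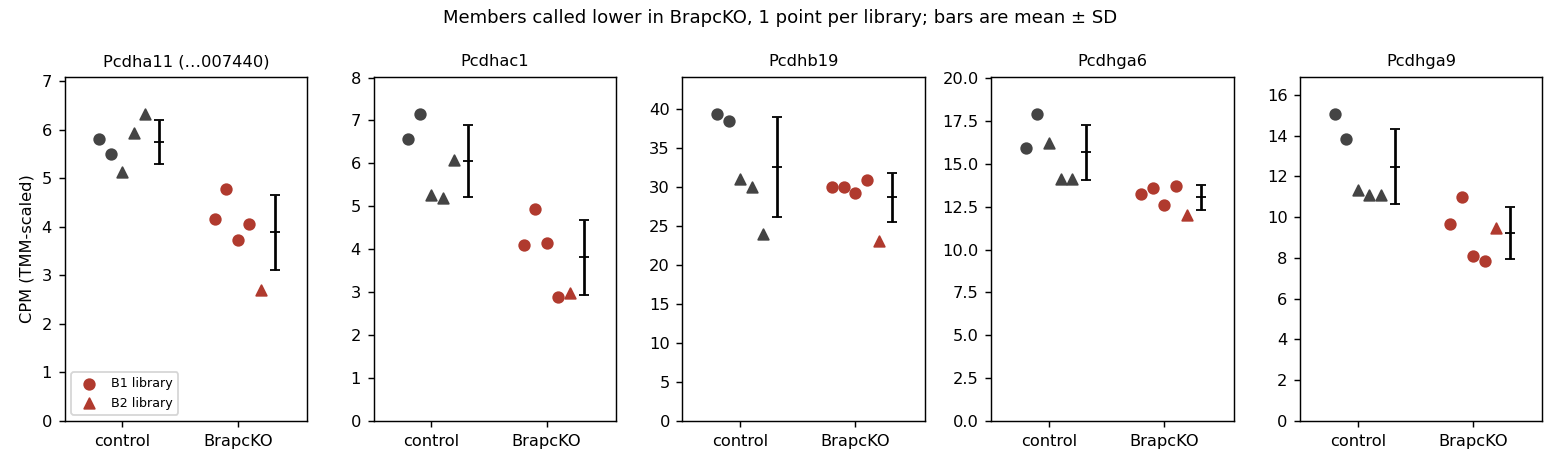
CPM per library of the 5 members that passed the test, with controls in grey, BrapcKO in red, B1 libraries as circles, B2 libraries as triangles, and bars for the mean ± SD of 5 libraries. Pcdhb19 is the only one of the 5 whose pooled groups overlap.

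Separation of the libraries gives a view that does not depend on a model. All 5 controls were above all 5 BrapcKO libraries in 5 members, Pcdha3, Pcdha11 (ENSMUSG00000007440), Pcdhac1, Pcdhga6 and Pcdhga9, beside 3.71% of all genes. The opposite order occurred in no member and in 3.12% of all genes. Compared only within B1 and within B2, the controls were above in 9 members (16.7%), beside 8.89% of all genes. These were the 5 just named with Pcdha7, Pcdhac2, Pcdhb10 and Pcdhb19. Of these 9, 5 were alpha genes, 2 beta genes and 2 gamma genes, and all 9 have no base under an opposite-strand exon.

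Summed over a cluster, the alpha genes held 117 ± 9.38 CPM (SD, n = 5) in controls and 94.2 ± 10.5 CPM (n = 5) in BrapcKO, a ratio of 0.803. The sum of the beta genes was 287 ± 31.2 and 261 ± 23.8 CPM, a ratio of 0.907, and that of the gamma genes 370 ± 23.9 and 339 ± 7.42 CPM, a ratio of 0.917. The gamma B genes alone held 56.6 ± 3.06 and 57.5 ± 7.26 CPM. All 54 members together ran from 759.1 to 793.0 CPM in the controls and from 636.3 to 730.1 CPM in BrapcKO, so the 2 groups did not overlap. These sums include the members that moved with the code. With the 43 members that have no opposite-strand exon, the ratio was 0.827 for alpha, 0.92 for beta and 0.969 for gamma, and the pooled groups overlapped in each cluster.

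Within a code the sums of these 43 members did not overlap. In B1 the alpha sum was 108.6 and 99.3 CPM in the controls and 79.8, 94.3, 91.2 and 80.0 CPM in BrapcKO, and in B2 it was 87.5, 94.0 and 110.2 CPM in the controls and 67.6 CPM in BrapcKO 21. The beta sum was 293.8 and 329.7 against 254.3 to 282.1 CPM in B1, and 231.3 to 274.6 against 213.8 CPM in B2. The gamma sum was 259.9 and 267.6 against 251.7 to 258.7 CPM in B1, where the groups were close, and 239.0 to 255.8 against 215.0 CPM in B2. BrapcKO 21 was the lowest library in each cluster, and it alone stands for BrapcKO in B2.

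**Figure D5:**
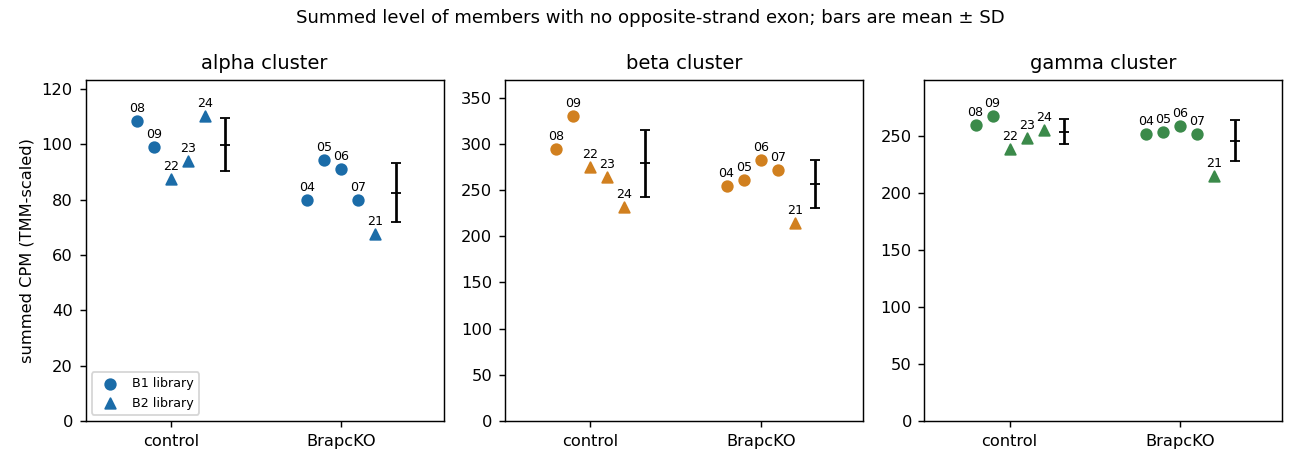
Summed CPM per library of the alpha (10), beta (20) and gamma (13) members with no base under an opposite-strand exon, labelled by library number, with circles for B1, triangles for B2 and bars for mean ± SD of 5 libraries. Within circles and within triangles the controls lie above the BrapcKO libraries in each cluster; among B1 libraries the gamma groups nearly meet.

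The calls depended on the model. None of the 5 passed with the group as the only term or with the code and a score of Y-linked reads as terms, where their adjusted p-values in edgeR's quasi-likelihood test ran from 0.063 to 0.53 and from 0.13 to 0.32. The share of all genes called lower was 2.49% and 1.61% in these 2 fits. At an unadjusted p under 0.05 there were 11 members with the group alone, 20.4% beside 18.5% of all genes, and 14 with the Y-linked score, 25.9% beside 14.9%. With the group alone the log2 differences were -0.67 for Pcdhac1, -0.57 for Pcdha11 (ENSMUSG00000007440), -0.44 for Pcdhga9 and -0.26 for Pcdhga6, and that of Pcdhb19 shrank to -0.18. With the Y-linked score the 5 log2 differences were -0.76 for Pcdhac1, -0.70 for Pcdha11 (ENSMUSG00000007440), -0.46 for Pcdhga9, -0.39 for Pcdhb19 and -0.30 for Pcdhga6. These estimates stayed near those of the main fit, while their adjusted p-values were higher. DESeq2 called 6 members lower, adding Pcdhac2 (6.82% of all genes lower). Limma-voom (5.15%), RLE scaling (4.85%) and a filter of 1 CPM in every library (5.04%) called 4, and plain library totals 3 (3.86%).

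Single libraries also decided the calls. No member passed edgeR's quasi-likelihood test without control 09 (2.34% of all genes lower), where 14 members (25.9%, beside 17.6% of all genes) had an unadjusted p under 0.05. In that fit the log2 difference was -0.795 for Pcdhac1, -0.485 for Pcdhga9 and -0.345 for Pcdhb19, near the values with all libraries. 1 member passed without control 08 (2.55%), 22 (3.92%) or 23 (3.44%) and without BrapcKO 06 (4.04%) or 07 (3.66%), in each case Pcdhac1. Without BrapcKO 21 (2.02%) it was Pcdhga9, and Pcdhac1 had an adjusted p of 0.070. In that fit 8 members (14.8%) had an unadjusted p under 0.05, beside 16.5% of all genes. Leaving out BrapcKO 04 (4.31%) left 2 members, BrapcKO 05 (5.26%) 4 and control 24 (6.16%) 7, with Pcdhb16 and Pcdhb21 besides the 5. In the B1 libraries alone 1 member was called, Pcdhb19 (2.12%), and 9 (16.7%) had an unadjusted p under 0.05, beside 17.8% of all genes. The B2 libraries hold a single BrapcKO library, so their lack of calls (0.113% of all genes lower) says nothing about stability. In the B1 libraries alone the median log2 difference was -0.24 in alpha, -0.19 in beta and 0.0057 in gamma. In B2, with a single BrapcKO library, it was -0.69, -0.28 and -0.26.

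The genotypes allow a pair of narrower comparisons that share no library. Both come from a single fit of 4 genotype groups with the code, so they share its estimates of the code and of the spread. Of the flox/flox libraries 05, 06 and 09 were B1 and 24 was B2. By Ddx3y reads 05 and 06 were male (119 and 133 CPM), and 09 and 24 were not (0.0508 and 0.0 CPM). Sex and Cre therefore cannot be told apart among the flox/flox libraries. In flox/ko Cre+ animals 2 members were lower than in flox/wt Cre- animals, Pcdhac1 at -0.86 (adjusted p = 0.033) and Pcdhb19 at -0.41 (adjusted p = 0.048), beside 3.08% of all genes lower and 1.77% higher. The estimate was negative in 50 of 54 members, with a median of -0.26. Between flox/flox Cre+ and flox/flox Cre- animals, 2 libraries each, no member was called by edgeR's quasi-likelihood test, 3 (5.56%) had an unadjusted p under 0.05 beside 13.5% of all genes, and 0.399% of all genes were called lower and 0.336% higher. There 37 of 54 estimates were negative, with a median of -0.13, and Pcdhac1 stood at -0.67. The gamma median was -0.19 in the former and 0.054 in the latter comparison. The test of the difference between the comparisons called none of the 14276 genes (872 at an unadjusted p under 0.05), and its smallest adjusted p among members was 0.85.

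Correlation of members across the 10 libraries, after group and code were taken out, is given as a description only, since all pairs share the same libraries and depths. The median Pearson r over pairs was 0.42 within alpha, 0.32 within gamma and 0.17 within beta, and 0 over all pairs of the 14276 genes. Between clusters it was 0.28 for alpha with gamma, -0.12 for alpha with beta and 0.063 for beta with gamma. Among members with at least 100 counts in every library, the gamma and beta values were again 0.32 and 0.17, but only 1 pair of alpha genes was left.

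No measured gene known to act on promoter choice passed the test. Of 23 measured regulators none was called by edgeR's quasi-likelihood test, beside 8.07% of all genes. None had an unadjusted p under 0.05, beside 22.2% of all genes. The regulators included Ctcf, the cohesin subunits Rad21, Smc1a and Smc3, the cohesin loader Nipbl, the methyltransferases Dnmt3a and Dnmt3b and the silencer Smchd1. Their median log2 difference was -0.0090. Ctcf stood at 89.1 ± 7.28 CPM in controls and 81.8 ± 6.59 CPM in BrapcKO (SD, n = 5 each), which differ by -0.08 on the log2 scale (SE 0.08). Dnmt3b had the estimate farthest from 0, -0.87 (SE 0.49, adjusted p = 0.33). Its level was low, at 0.68 ± 0.35 CPM in controls and 0.42 ± 0.21 CPM in BrapcKO, so this estimate is imprecise. Between the codes 6 of the 23 regulators were lower in B2 and 0 were higher, beside 11.8% and 13.4% of all genes.

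Of 23 genes for partners, signalling and cleavage of protocadherins 1 rose, the receptor tyrosine kinase Ret, from 5.18 ± 1.07 CPM to 16.0 ± 4.96 CPM (SD, n = 5 each), or by 1.62 on the log2 scale (SE 0.23, adjusted p = 0.0017). The kinases Fyn, Ptk2 and Ptk2b, which the protocadherin tail is known to act on or bind, had estimates of -0.03 each. Celsr1, a seven-pass cadherin, stood at -0.85 (SE 0.25, adjusted p = 0.059), and the list's median was -0.028.

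The protocadherins outside the clusters did not share the direction. Of 12 measured genes 2 rose and 1 fell. Pcdh17 rose from 159 ± 13.1 to 229 ± 17.5 CPM (SD, n = 5 each), or by 0.54 on the log2 scale (adjusted p = 0.0033), with no overlap between the groups. Pcdh15 rose by 0.67 on the log2 scale (adjusted p = 0.0068) and Pcdh9 fell by 0.39 (adjusted p = 0.020), both with overlapping groups and both also lower in B2. Pcdh9 did not pass with the group as the only term (adjusted p = 0.59). The median of the 12 was -0.016, and 7 estimates were negative, beside 48 of 54 in the clusters.

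Genes around the clusters did not share it either. Of 33 other measured genes that start within the span of the clusters or within 1 Mb of its ends, 11 had a negative estimate and the median log2 difference was 0.062. Cd14, a co-receptor for bacterial lipopolysaccharide on myeloid cells, rose by 1.45 (SE 0.41, adjusted p = 0.048), and Spry4, an inhibitor of receptor tyrosine kinase signalling, fell by 0.64 (SE 0.18, adjusted p = 0.044; 0.062 with the group as the only term). The genes Slc25a2 and Taf7, which lie between the beta and gamma clusters, had estimates of 0.16 (SE 0.29) and 0.24 (SE 0.14).

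Markers of cell types moved between the libraries as well. The summed level of 9 neuron markers ran from 9088 to 10160 CPM in controls and from 8915 to 10160 CPM in BrapcKO. Among them Gad1 and Gad2, the enzymes of GABA synthesis, rose by 0.57 and 1.23 on the log2 scale (adjusted p = 0.0077 and 3.0e-04), and Syt1, a vesicle calcium sensor, fell by 0.34 (adjusted p = 0.0063). Of 8 striatum markers 6 rose, with sums of 438 to 960.5 CPM in controls and 817.2 to 1526 CPM in BrapcKO. Gfap was the only 1 of 7 astrocyte markers to rise (log2 difference 2.05, adjusted p = 0.020). None of the 6 microglia markers passed the test (2 at an unadjusted p under 0.05), with sums of 169.5 to 225.8 CPM in controls and 225.7 to 579 CPM in BrapcKO. None of the 6 oligodendrocyte markers passed either (2 at an unadjusted p under 0.05), with sums of 3183 to 4410 and 2344 to 3230 CPM. The sums of 3 choroid plexus markers ran from 34.8 to 2276 and from 99.6 to 655.9 CPM, with no marker called. No marker of oligodendrocyte precursors (2 genes), endothelium (4 genes) or the serotonergic raphe (Tph2, at most 1.75 CPM) was called, and none of these 7 genes had an unadjusted p under 0.05. The part of these differences in the protocadherin values was not tested.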

How the data were processed

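The submitters' processing notes name the builds mm10 and GRCm38 and the tools edgeR, DESeq2, featureCounts, Subread and FastQC. Their versions, order, settings and use of strand are not stated in those notes. The authors deposited 1 table of raw counts per gene for all 10 libraries. Groups and genotypes came from the labels.

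Counts were fitted for all 14276 genes by edgeR 4.0.16 (quasi-likelihood test, R 4.3.3, robust, TMM, title code and group as terms) and p-values adjusted by Benjamini and Hochberg over all genes, with 0.05 as the threshold. The SE is the log2 difference divided by the square root of F. The fit was also run on simulated counts drawn from its own estimates of spread, with effects of group and code only. That run cannot speak to sex or to the weight of single libraries. Alternatives were the group alone, a Y-linked score as a further term, DESeq2 1.42.0, limma-voom 3.58.1, other scalings, a filter of 1 CPM and leaving out each library. Fits within a code, members without opposite-strand exons and separation within codes were chosen after seeing the data. The members and lists were chosen with earlier results of these data known. Named members were all C-types, those called, the 2 with the smallest p and the highest and lowest level per cluster, up to 4 genes per other list and the 2 called members with the smallest p in each direction of the code and genotype comparisons; other members were named after their values were seen. Opposite-strand overlap and unshared exon lengths were computed from GENCODE M21. Promoter sequences were not analysed here.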

Additional observations from a re-analysis of the deposited data

Results flagged for a closer look

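In BrapcKO 21 a member stood far from the 4 other BrapcKO libraries in 4 genes. Pcdhb12 was highest there, at 8.78 CPM, with a gap to the nearest library of 0.906 of the group's range. Pcdhgc3 was also highest there, at 59.0 CPM (0.747 of the range). Pcdhb19 was lowest there, at 23.1 CPM (0.783), and Pcdhb21 at 8.25 CPM (0.747). Dixon's critical value for 5 libraries is 0.71. These were 4 of 36 groups examined, and chance flags about 1 in 20. BrapcKO 21 is the only BrapcKO library with the code B2, and all 4 genes differed between the codes in the same direction over all libraries.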

How the results depend on the processing

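No member was called higher under any setting. With the group as the only term, and with the Y-linked score, 0 members were called in alpha, beta and gamma. DESeq2 called 6 members (Pcdhac2 besides the 5). Limma-voom, RLE scaling and the filter of 1 CPM called 1 gamma gene in place of 2, and scaling to library totals called 1 gamma and 0 beta genes. In B1 alone 0 alpha, 1 beta and 0 gamma genes were called, and in B2 alone, with 1 BrapcKO library, 0, 0 and 0. Leaving out 1 library gave 0 to 2 alpha, 0 to 3 beta and 0 to 2 gamma calls. The medians then ran from -0.248 to -0.139 over all members, -0.454 to -0.241 in alpha, -0.268 to -0.195 in beta and -0.17 to 0.000293 in gamma, where the last is without BrapcKO 21. The median in B2 alone was -0.69 in alpha, -0.257 in gamma and -0.334 over all members, and in B1 alone 0.00565 in gamma. Among the members chosen for naming, the sign turned for Pcdha1 (0.0824 with the group alone, 0.368 in B1, -0.227 to 0.363 when leaving out 1 library, above 0 without control 24 or BrapcKO 04 or 21), Pcdhb12 (0.191 in B1, -0.308 to 0.186 when leaving out 1 library), Pcdhb18 (0.0153 with the group alone), Pcdhgb5 (-0.312 in B2, -0.00813 to 0.299 when leaving out 1 library), Pcdhgc3 (-0.314 with the group alone, -0.00476 in B2) and Pcdhgc4 (0.00903 in B1, -0.294 to 0.00369 when leaving out 1 library), none of them called. Among the other members it turned in 7 with the group alone, 8 in B1, 5 in B2, 3 with the Y-linked score, 1 with limma-voom and up to 7 when leaving out 1 library. Where a call was lost in a fit with fewer libraries, fewer samples entered; otherwise the cause was not tested. Over whole exon lengths the level of Pcdha1 was 0.238, of Pcdhac2 9.25, of Pcdhgb5 1.40 and of Pcdhgc5 15.2 CPM per kilobase. Depth limits the alpha genes most, at as few as 13 counts in a library. No paired analysis was possible because the groups share no replicate numbers.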
